A study of Homo sapiens with 12 samples.

Results

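The proteasome genes were described across T47D, a line of luminal breast cancer cells with progesterone receptor, after depletion of the arginine methyltransferase PRMT1 and treatment with a progestin. Members were the gene symbols that start with PSM, a letter from A to G and a number. PSMB8, PSMB9 and 26 pseudogenes were left out, which gave 46 members among 55765 symbols. Of these, 44 had enough counts to be tested. The remaining pair, PSMA8, the alpha subunit of the testis proteasome, and PSMB11, the beta subunit of the thymus proteasome, had 0 counts in all 12 libraries.

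The study asked whether PRMT1 is needed for the expression changes that progestin brings about. RNA-seq counts were given for 4 groups of 3 biological replicates, all treated for 6 h: cells with an siRNA against PRMT1 (siPRMT1) and 10 nM of the synthetic progestin R5020, siPRMT1 cells with ethanol, cells with a nonspecific control siRNA (siCT) and 10 nM R5020, and siCT cells with ethanol, the vehicle (T0 in their titles). All groups are one cell line grown in serum with insulin, and the siRNA sequences are not known here. Levels are CPM, counts scaled to a common library size after TMM scaling, and every change is given as siPRMT1 over siCT or as R5020 over ethanol.

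The proteasome degrades proteins marked with ubiquitin. Its 20S core is a barrel of outer alpha rings (PSMA) and inner beta rings (PSMB), of which PSMB5, PSMB6 and PSMB7 cut peptide bonds. The 19S cap recognises, unfolds and feeds in substrates by means of ATPases (PSMC) and by genes named PSMD, most of which are non-ATPase subunits, while PSMD5, PSMD9 and PSMD10 are chaperones that assemble its base. Other caps, the activators PSME1 to PSME4, open the barrel without ubiquitin recognition, PSMF1 was described as an inhibitor, and PSMG1 to PSMG4 are chaperones that assemble the core. In mammalian cells NFE2L1 binds antioxidant response elements (ARE) in the promoters of proteasome genes and raises them together when degradation is blocked.

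Total counts ranged from 26783525 to 34120937 per library, of which members took 36782 to 119707. PRMT1 itself had 6.98, 6.89 and 7.37 CPM in siPRMT1 R5020 libraries and 7.92, 8.38 and 8.38 CPM in siPRMT1 ethanol libraries, against 40.7, 50.7 and 37.5 CPM in siCT R5020 libraries and 45.4, 37.4 and 29.7 CPM in siCT ethanol libraries. Every library thus matched the siRNA in its label. The PRMT1 level is no check of the treatment in the label. A pair of siCT libraries, R5020 replicate 1 and ethanol replicate 3, stood apart: mitochondrially encoded genes took 52.4% and 59.3% of their counts, whereas the remaining 10 libraries had 31.3% to 38.3%. Counts of calls, medians and many single values are given both with and without this pair. Luminal markers summed to 11740 to 12535 CPM in siPRMT1 R5020, 15643 to 16220 CPM in siPRMT1 ethanol, 6488 to 7697 CPM in siCT R5020 and 7695 to 10518 CPM in siCT ethanol, and were present in all 12 libraries. Leukocyte markers summed to at most 2.18 CPM and endothelial markers to at most 0.146 CPM.

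Promoters are shown for PSMA6, the one member called with R5020, and for the 5 members called with siPRMT1 in both treatments. They come from RefSeq on GRCh38.p14, run from 250 bases before the start site to 50 after it, and are written in the direction of transcription. Capitals mark matches, on either strand, to an ARE-like motif (TGACNNNGC), a CCAAT box (CCAAT), an ETS-like motif (CCGGAAG), an NRF1-like motif (GCGC, any base, TGCGC) and a progestin response element (GNACA, any 3 bases, TGTNC). The ARE that NFE2L1 binds is represented by the ARE-like motif and not by the NRF1-like one.
PSME4, chr2:53970944-53971243, minus strand: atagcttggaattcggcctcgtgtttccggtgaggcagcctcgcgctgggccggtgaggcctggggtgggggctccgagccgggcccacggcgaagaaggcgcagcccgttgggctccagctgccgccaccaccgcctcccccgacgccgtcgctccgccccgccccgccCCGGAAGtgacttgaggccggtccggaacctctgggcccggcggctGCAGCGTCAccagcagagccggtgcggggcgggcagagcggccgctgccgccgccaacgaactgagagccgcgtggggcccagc
PSMD10, chrX:108091493-108091792, minus strand: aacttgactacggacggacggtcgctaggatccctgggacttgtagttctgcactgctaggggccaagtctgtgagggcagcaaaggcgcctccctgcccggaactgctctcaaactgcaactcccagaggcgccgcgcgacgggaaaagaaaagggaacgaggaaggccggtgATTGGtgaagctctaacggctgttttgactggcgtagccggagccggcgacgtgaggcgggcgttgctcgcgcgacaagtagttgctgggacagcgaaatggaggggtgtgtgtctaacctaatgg
PSMD7, chr16:74296564-74296863, plus strand: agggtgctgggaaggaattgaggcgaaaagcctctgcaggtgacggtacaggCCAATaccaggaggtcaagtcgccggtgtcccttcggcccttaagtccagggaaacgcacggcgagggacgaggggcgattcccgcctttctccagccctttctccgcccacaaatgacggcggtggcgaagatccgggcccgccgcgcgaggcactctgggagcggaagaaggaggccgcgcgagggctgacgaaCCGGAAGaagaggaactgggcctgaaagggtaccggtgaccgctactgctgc
PSMB4, chr1:151399323-151399622, plus strand: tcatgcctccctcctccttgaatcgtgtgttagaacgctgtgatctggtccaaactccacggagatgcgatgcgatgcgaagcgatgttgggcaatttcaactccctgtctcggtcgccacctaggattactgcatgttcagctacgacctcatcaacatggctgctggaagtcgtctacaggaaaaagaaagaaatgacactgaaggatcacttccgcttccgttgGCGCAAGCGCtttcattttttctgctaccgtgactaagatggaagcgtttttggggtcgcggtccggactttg
PSMG4, chr6:3258697-3258996, plus strand: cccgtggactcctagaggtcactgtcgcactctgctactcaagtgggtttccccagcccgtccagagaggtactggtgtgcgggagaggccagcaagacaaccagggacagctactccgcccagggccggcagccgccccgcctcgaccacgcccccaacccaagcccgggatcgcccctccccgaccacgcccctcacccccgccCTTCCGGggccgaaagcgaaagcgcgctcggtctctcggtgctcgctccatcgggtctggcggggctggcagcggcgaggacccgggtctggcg
PSMA6, chr14:35292132-35292431, plus strand: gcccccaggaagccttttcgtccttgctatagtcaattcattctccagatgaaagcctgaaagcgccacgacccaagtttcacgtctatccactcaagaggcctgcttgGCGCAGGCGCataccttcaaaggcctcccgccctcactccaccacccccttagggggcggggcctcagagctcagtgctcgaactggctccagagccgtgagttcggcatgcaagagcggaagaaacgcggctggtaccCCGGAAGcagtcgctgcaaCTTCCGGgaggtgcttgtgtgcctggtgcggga
The PSME4 window held an ARE-like and an ETS-like match, that of PSMD7 a CCAAT box and an ETS-like match, and that of PSMD10 a CCAAT box. Of the members called lower, PSMB4 had an NRF1-like match and PSMG4 an ETS-like match. PSMA6, of whose 2 overlapping windows one is shown, had a pair of ETS-like matches and an NRF1-like match. No match to one motif overlapped a match to another in the windows shown.

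RefSeq gave 48 such windows for 40 of the 46 members, with none for PSMA7, PSMB1, PSMB6, PSMB7, PSMD4 and PSMG3. ARE-like matches were found in 14 windows, 29.2% of the members' windows and 13.3% of all 35116 windows. They were in PSMA4, PSMB3, PSMC4, PSMC5, PSMD1, PSMD3, PSMD5, PSMD9, PSMD12, PSME1, PSME2, PSME4, PSMG1 and PSMG2, so in each class. ETS-like matches were found in 31.2% of the members' windows and 10.3% of all, NRF1-like matches in 14.6% and 5.78%, and CCAAT boxes in 39.6% and 34.6%. The NRF1-like matches were in 7 windows of 5 genes, as overlapping windows of PSMA4 and of PSMA6 hold the same site. No member's window held the progestin response element, which 0.39% of all windows held. A match is a description of these letters and no evidence of binding, and no share was tested.

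After PRMT1 depletion the activator PSME4 and the 19S genes PSMD7 and PSMD10 were higher and PSMB4 and PSMG4 lower, in R5020 and in ethanol, and PSMD5 and PSMD12 passed the test in ethanol. In R5020, 3 of the 44 tested members were called higher and 2 lower at an edgeR adjusted p under 0.05, from a quasi-likelihood test with Benjamini-Hochberg adjustment over 17727 genes. Among all genes tested 11.5% were called higher and 14.2% lower. In ethanol, 5 members were called higher and 2 lower, where 13.6% of all genes were called higher and 19.2% lower. The 5 members called in R5020 were all among the 7 called in ethanol. These comparisons share no library, but both come from 1 fit of all 12 libraries with a shared estimate of the spread. They are thus not independent tests, and the share of all called genes that passed in both is not given here. The median member had a log2 fold change of 0.13 in R5020 and 0.14 in ethanol, against -0.034 and -0.071 over all genes. Without the pair of siCT libraries that stood apart the medians were 0.043 and 0.011, against 0.00013 and -0.045 over all genes, with 25 and 23 of 44 members positive in place of 31 and 32. Leaving out 1 library at a time moved the R5020 median to between 0.032, without siCT R5020 replicate 1, and 0.20, without siCT R5020 replicate 3. The ethanol median moved to 0.062 without siCT ethanol replicate 3 and to 0.23 without siCT ethanol replicate 1 or 2. The number of members called was thus no larger a share than among all genes. In bulk RNA, fewer cells that express a gene and less RNA per cell cannot be told apart.

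**Figure D1:**
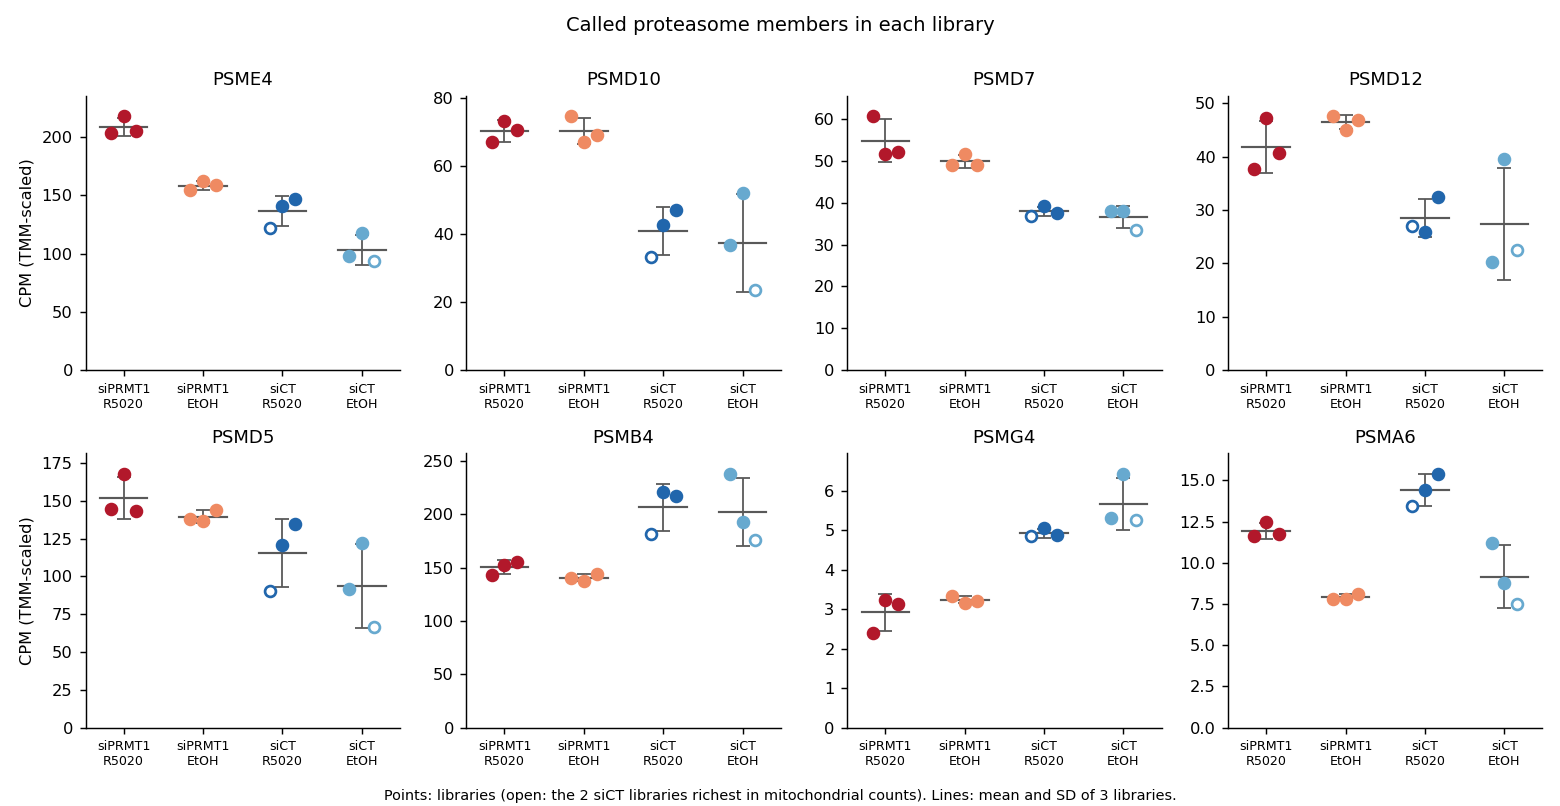
CPM of the 8 members called in any comparison, by group, with 1 point per library, the mean and the SD of 3 libraries; open points are the siCT libraries with 52.4% and 59.3% mitochondrially encoded counts. PSME4 and PSMD7 are higher in all siPRMT1 libraries than in the siCT libraries of the same treatment, PSMB4 and PSMG4 are lower, and PSMA6 is higher in R5020 than in ethanol within each siRNA.

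PSME4 (PA200), the large nuclear activator that caps the core in DNA repair and spermatogenesis, had 204, 218 and 205 CPM in siPRMT1 R5020 libraries, against 122, 141 and 146 CPM in siCT R5020 libraries. In ethanol it had 155, 162 and 159 CPM in siPRMT1 cells, against 98.1, 118 and 93.2 CPM in siCT cells. The groups did not overlap in either treatment. PSME4 rose 1.53-fold in R5020 (log2 fold change 0.61 ± 0.14 SE, edgeR adjusted p = 0.00791) and 1.54-fold in ethanol (log2 fold change 0.62 ± 0.14 SE, edgeR adjusted p = 0.00607). Without the pair that stood apart the log2 fold changes were 0.55 ± 0.090 SE, edgeR adjusted p = 0.000724 in R5020, and 0.56 ± 0.090 SE, edgeR adjusted p = 0.00056 in ethanol.

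PSMD10 (gankyrin), a chaperone that helps to assemble the base of the 19S cap and is known as an oncoprotein in liver, had 66.97, 73.3 and 70.8 CPM in siPRMT1 R5020 libraries, against 33.3, 42.7 and 47.04 CPM in siCT R5020 libraries. In ethanol the level was 74.7, 67.2 and 69.1 CPM in siPRMT1 cells, against 36.7, 52.1 and 23.5 CPM in siCT cells. The siPRMT1 libraries lay above all siCT libraries, whose lowest values came from the pair that stood apart. PSMD10 rose 1.72-fold in R5020 (log2 fold change 0.78 ± 0.23 SE, edgeR adjusted p = 0.0252) and 1.88-fold in ethanol (log2 fold change 0.91 ± 0.23 SE, edgeR adjusted p = 0.01). Without the pair the log2 fold changes were 0.66 ± 0.13 SE, edgeR adjusted p = 0.00271 in R5020, and 0.67 ± 0.13 SE, edgeR adjusted p = 0.00204 in ethanol. The R5020 call was lost when any 1 of the siPRMT1 R5020 libraries, siCT R5020 replicate 1 or siCT R5020 replicate 2 was left out (log2 fold change 0.65 to 0.82, edgeR adjusted p from 0.0557 to 0.0868).

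PSMD7, a lid subunit that pairs with the deubiquitinase PSMD14, had 60.8, 51.7 and 52.3 CPM in siPRMT1 R5020 libraries, against 37.0, 39.2 and 37.7 CPM in siCT R5020 libraries. Under ethanol it had 49.1, 51.6 and 49.0 CPM in siPRMT1 cells, against 38.1, 38.1 and 33.5 CPM in siCT cells. These siCT values were close together and included the pair that stood apart. PSMD7 rose 1.45-fold in R5020 (log2 fold change 0.53 ± 0.12 SE, edgeR adjusted p = 0.00807) and 1.36-fold in ethanol (log2 fold change 0.45 ± 0.12 SE, edgeR adjusted p = 0.0152). The ethanol call was lost without siPRMT1 ethanol replicate 2 (log2 fold change 0.43, edgeR adjusted p = 0.0633). In GENCODE v29, 30.7% of the exonic bases of PSMD7 lie opposite AC009120.2, whose reads cannot be told apart here without a stated strand setting. Its pseudogene PSMD7P1 held 1915 counts in all, against 17349 in PSMD7, and also rose in both treatments (log2 fold change 1.09 ± 0.28 SE in R5020 and 0.94 ± 0.28 SE in ethanol, edgeR adjusted p = 0.0135 and 0.0214).

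PSMD12, another lid subunit, had 37.7, 47.2 and 40.7 CPM in siPRMT1 R5020 libraries, against 27.1, 25.9 and 32.5 CPM in siCT R5020 libraries. In ethanol it had 47.6, 45.1 and 46.8 CPM in siPRMT1 cells, against 20.2, 39.5 and 22.6 CPM in siCT cells, of which replicate 2 was the highest. PSMD12 rose 1.69-fold in ethanol (log2 fold change 0.76 ± 0.22 SE, edgeR adjusted p = 0.0176), and its log2 fold change of 0.55 ± 0.22 SE in R5020 did not pass (edgeR adjusted p = 0.0737). The ethanol call was lost without siPRMT1 ethanol replicate 1 or 3 or siCT ethanol replicate 1, with log2 fold changes of 0.58 to 0.76 and edgeR adjusted p from 0.0524 to 0.0605. Without the pair that stood apart its log2 fold changes were 0.53 ± 0.22 SE, edgeR adjusted p = 0.079 in R5020, and 0.65 ± 0.22 SE, edgeR adjusted p = 0.0335 in ethanol. Its pseudogene PSMD12P held 2728 counts, against 14061 in PSMD12, and rose by 0.81 ± 0.29 SE in ethanol (log2, edgeR adjusted p = 0.0489), a call lost without the pair (0.60 ± 0.27 SE, edgeR adjusted p = 0.0839).

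PSMD5, a chaperone of the 19S base that is not part of the finished cap, had 145, 168 and 143 CPM in siPRMT1 R5020 libraries, against 90.6, 121 and 135 CPM in siCT R5020 libraries. In ethanol the level was 138, 136 and 144 CPM in siPRMT1 cells, against 91.7, 122 and 66.8 CPM in siCT cells. The lowest siCT value of each treatment came from the pair that stood apart. PSMD5 rose 1.49-fold in ethanol (log2 fold change 0.58 ± 0.21 SE, edgeR adjusted p = 0.0488), and its log2 fold change of 0.40 ± 0.21 SE in R5020 did not pass (edgeR adjusted p = 0.172). The ethanol call lay near the threshold: it was lost when any 1 of 10 libraries was left out, all but siCT ethanol replicate 2 and siCT R5020 replicate 1 (log2 fold change 0.45 to 0.59, edgeR adjusted p from 0.0535 to 0.125). Its antisense gene PSMD5-AS1, with 13311 counts in all, fell in R5020 (log2 fold change -0.45 ± 0.14 SE, edgeR adjusted p = 0.0332) and in ethanol (log2 fold change -0.40 ± 0.14 SE, edgeR adjusted p = 0.046). Without the pair the log2 fold change of PSMD5 in ethanol was 0.39 ± 0.12 SE, edgeR adjusted p = 0.022. That of PSMD5-AS1 was -0.28 ± 0.11 SE, edgeR adjusted p = 0.063, and its ethanol call was lost.

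PSMB4, a beta-ring subunit that cuts no peptide bonds and helps to complete the core, had 143, 153 and 155 CPM in siPRMT1 R5020 libraries, against 182, 221 and 218 CPM in siCT R5020 libraries. Under ethanol it had 140.4, 137 and 144 CPM in siPRMT1 cells, against 238, 193 and 176 CPM in siCT cells. No siPRMT1 library reached the lowest siCT library of its treatment. PSMB4 fell 1.38-fold in R5020 (log2 fold change -0.46 ± 0.15 SE, edgeR adjusted p = 0.0402) and 1.44-fold in ethanol (log2 fold change -0.53 ± 0.15 SE, edgeR adjusted p = 0.0189). The R5020 call was lost when any 1 of 8 libraries was left out, which were the 6 siPRMT1 libraries and siCT R5020 replicates 2 and 3 (log2 fold change -0.49 to -0.41, edgeR adjusted p from 0.0664 to 0.134). The ethanol call was lost without any 1 of the siPRMT1 ethanol libraries or without siCT ethanol replicate 1 (-0.54 to -0.39, edgeR adjusted p from 0.0524 to 0.0733). Without the pair the log2 fold changes were -0.53 ± 0.088 SE, edgeR adjusted p = 0.00078 in R5020, and -0.61 ± 0.088 SE, edgeR adjusted p = 0.000286 in ethanol.

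PSMG4 (PAC4), which with PSMG3 guides the alpha ring together, had 2.39, 3.24 and 3.12 CPM in siPRMT1 R5020 libraries, against 4.84, 5.05 and 4.87 CPM in siCT R5020 libraries. In ethanol the level was 3.33, 3.17 and 3.21 CPM in siPRMT1 cells, against 5.31, 6.43 and 5.25 CPM in siCT cells. The groups did not overlap, and the pair that stood apart lay with the other siCT libraries. PSMG4 fell 1.69-fold in R5020 (log2 fold change -0.75 ± 0.17 SE, edgeR adjusted p = 0.00632) and 1.75-fold in ethanol (log2 fold change -0.81 ± 0.16 SE, edgeR adjusted p = 0.00321). Its partner PSMG3 had log2 fold changes of -0.32 ± 0.16 SE in R5020 and -0.18 ± 0.16 SE in ethanol, which did not pass (edgeR adjusted p = 0.154 and 0.423). In GENCODE v29, 13.3% of the exonic bases of PSMG4 lie opposite SLC22A23.

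**Figure D2:**
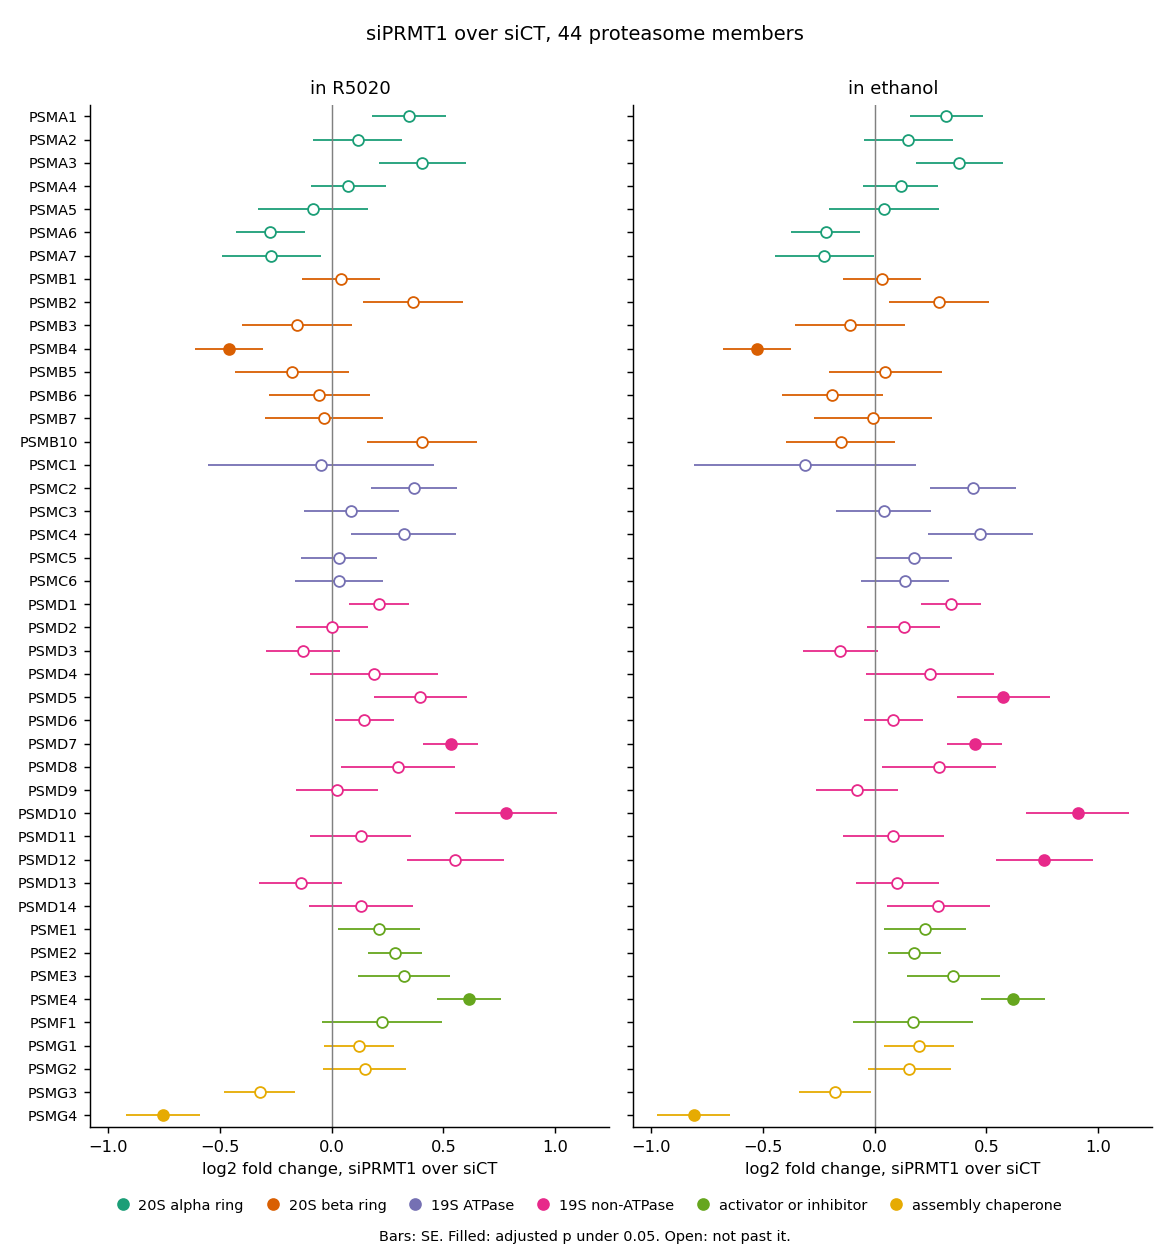
Log2 fold change of siPRMT1 over siCT for the 44 tested members, in R5020 and in ethanol, by class, with bars for the SE and filled points for an adjusted p under 0.05. Filled points are 5 in R5020 and 7 in ethanol, from -0.81 (PSMG4, ethanol) to 0.91 (PSMD10, ethanol).

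By class, the called members were 2 of 14 genes named PSMD in R5020 and 4 of 14 in ethanol, 1 of 5 activators or inhibitors, 1 of 8 beta-ring subunits and 1 of 4 assembly chaperones in each treatment. No alpha-ring subunit or 19S ATPase was called by edgeR with all 12 libraries in either treatment. At an unadjusted p under 0.05 there was 1 of them, in ethanol: PSMC2, an ATPase with 68.9 ± 2.86 CPM in siPRMT1 and 50.7 ± 16.3 CPM in siCT cells (SD, n = 3, log2 fold change 0.44 ± 0.19 SE, edgeR adjusted p = 0.0955). DESeq2 run here on all 12 libraries called none of them either. Other settings called some, among them these in R5020. The authors' deposited table called PSMA1, PSMA3 and PSMC2 higher, where 30.7% of all genes were called. The 6 libraries compared alone gave PSMA3 higher, where 35.2% were called. Limma with sample quality weights gave PSMA1, PSMA3 and PSMC2 higher and PSMA6 and PSMA7 lower, where 55.7% were called. Of the 14 genes named PSMD, which the plot by class shows as 19S non-ATPase, 12 had a positive log2 fold change in each treatment, with medians of 0.17 in R5020 and 0.27 in ethanol. Without the pair 8 were positive in each treatment, with medians of 0.085 and 0.040. The 8 beta-ring subunits had medians of -0.045 and -0.059 with all libraries, and -0.22 and -0.30 without the pair. The 7 alpha-ring subunits ran from -0.27 (PSMA6) to 0.41 (PSMA3) in R5020 and from -0.22 (PSMA7) to 0.38 (PSMA3) in ethanol, and the 6 ATPases from -0.047 (PSMC1) to 0.37 (PSMC2) and from -0.31 (PSMC1) to 0.47 (PSMC4). Over all 44 members, libraries did not overlap and were higher for 14 in R5020 and 9 in ethanol, and lower for 4 and 2. Among all genes 25.6% in R5020 and 20.9% in ethanol were higher without overlap, and 26% and 23.8% lower.

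Leaving out the pair that stood apart, an alternative added after the data were seen, changed which beta-ring subunits were called. In ethanol it gave 13 called members, 6 higher and 7 lower, where 44.5% of all genes were called, and in R5020 it gave 9, 5 higher and 4 lower, where 38.9% were. Beside PSMB4 and PSMG4, the members called lower in ethanol were PSMA6, PSMA7, PSMB3, PSMB6 and PSMB7. For PSMA6 the direction was the opposite when its pseudogenes were added. Together they had 58.6, 53.9 and 58.2 CPM in siPRMT1 ethanol libraries, against 44.6 and 51.5 CPM in siCT ethanol replicates 1 and 2. The caspase-like subunit PSMB6 then had a log2 fold change of -0.39 ± 0.12 SE, edgeR adjusted p = 0.0221, and the trypsin-like PSMB7 one of -0.29 ± 0.094 SE, edgeR adjusted p = 0.028. With all 12 libraries they were -0.19 ± 0.23 SE and -0.0071 ± 0.26 SE. In R5020 PSMA7 and PSMB3 were called lower and PSMB2 and PSME2 higher beside the 5 members called with all libraries. Fitted on only the 6 libraries compared, 7 members were called in R5020, where 35.2% of all genes were, and 3 in ethanol (PSME4, PSMD10 and PSMG4), where 19.5% were. With library totals in place of TMM scaling, edgeR called no member in any comparison, with 3 members at an unadjusted p under 0.05 for siPRMT1 in R5020 and 5 in ethanol. That scaling called 13.7% of all genes for siPRMT1 in R5020 and 17% in ethanol, 11.6% with R5020 in siPRMT1 cells and 8.9% in siCT cells, and 0.0169% in the interaction. Without siCT ethanol replicate 2 alone, 9 members were called in R5020 and 14 in ethanol, where 31.7% and 43.4% of all genes were. Without siCT ethanol replicate 3, 8 were called in R5020, where 37.5% of all genes were.

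Markers of basal or myoepithelial cells also differed with siPRMT1. All 5 markers had counts in some library and 4 were tested, of which 1 was called higher and 1 lower in R5020, and 2 lower in ethanol. They summed to 10.3 to 11.6 CPM in siPRMT1 R5020 and 9.17 to 11.0 CPM in siPRMT1 ethanol, against 36.3 to 49.4 CPM in siCT R5020 and 46.3 to 59.9 CPM in siCT ethanol. Most of this sum was the smooth muscle actin ACTA2, which fell in R5020 (log2 fold change -2.48 ± 0.17 SE, edgeR adjusted p = 2.97e-06) and in ethanol (log2 fold change -2.68 ± 0.17 SE, edgeR adjusted p = 2.26e-06). The basal keratin KRT5 went the other way and was the marker called higher in R5020. It had 1.49, 0.911 and 0.788 CPM in siPRMT1 R5020 libraries, against 0.0404, 0.0827 and 0.125 CPM in siCT R5020 libraries. KRT5 was at 0 in all 6 ethanol libraries. Of 9 luminal markers, 4 were called higher and 2 lower in R5020, and 4 higher in ethanol, led by KRT18, with log2 fold changes of 1.41 ± 0.24 SE and 1.42 ± 0.24 SE (edgeR adjusted p = 0.00142 and 0.0011). In R5020 FOXA1 averaged 186 ± 4.25 CPM in siPRMT1 and 274 ± 38.2 CPM in siCT cells, and GATA3 456 ± 2.72 and 713 ± 157 CPM (SD). Of all genes, 11.5% were called higher and 14.2% lower with siPRMT1 in R5020, and 13.6% and 19.2% in ethanol. Stromal markers, mostly COL1A1, summed to 30.7 to 35.03 CPM in siPRMT1 R5020, 35.5 to 36.8 in siPRMT1 ethanol, 30.3 to 61.0 in siCT R5020 and 35.6 to 85.1 in siCT ethanol. Of the 2 stromal markers tested, LUM was called lower in R5020 (log2 fold change -1.37 ± 0.43 SE, edgeR adjusted p = 0.0334) and in ethanol (log2 fold change -1.60 ± 0.39 SE, edgeR adjusted p = 0.00818). The part of these genes' change in the members' values was not tested.

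R5020 changed 1 member past the threshold, PSMA6, a subunit of the alpha ring, in siPRMT1 cells and in siCT cells. It had 11.6, 12.5 and 11.7 CPM in siPRMT1 R5020 libraries, against 7.78, 7.82 and 8.11 CPM in siPRMT1 ethanol libraries. With siCT it had 13.4, 14.4 and 15.4 CPM in R5020 libraries, against 11.2, 8.79 and 7.49 CPM in ethanol libraries. R5020 and ethanol libraries did not overlap with either siRNA. PSMA6 rose 1.51-fold in siPRMT1 cells (log2 fold change 0.59 ± 0.15 SE, edgeR adjusted p = 0.0178) and 1.57-fold in siCT cells (log2 fold change 0.65 ± 0.15 SE, edgeR adjusted p = 0.0124). No member was called lower. Among all genes tested, 9.3% were called higher and 6.08% lower in siPRMT1 cells, and 7.59% and 5.43% in siCT cells, so that the 1 of 44 members called is a smaller share. The 14 genes named PSMD had log2 fold changes from -0.15 (PSMD12) to 0.26 (PSMD8) in siPRMT1 cells and from -0.072 (PSMD6) to 0.30 (PSMD5) in siCT cells. The median member had a log2 fold change of 0.037 in siPRMT1 cells and 0.072 in siCT cells, against -0.0036 and -0.043 over all genes. Without the pair the medians were 0.030 and 0.0050, against -0.011 and -0.050. With 1 library left out at a time, the median in siPRMT1 cells lay between 0.00061, without siCT ethanol replicate 3, and 0.080, without siPRMT1 ethanol replicate 1. In siCT cells it was -0.049 without siCT ethanol replicate 3, against -0.010 over all genes, and 0.013 and 0.031 without siCT R5020 replicates 3 and 2. It reached 0.21 to 0.22 without siCT ethanol replicate 1 or 2 or siCT R5020 replicate 1. With library totals in place of TMM scaling the medians were -0.13 and 0.0051, against -0.18 and -0.070 over all genes.

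The PSMA6 call in siPRMT1 cells was lost without any 1 of the 6 siPRMT1 libraries (log2 fold change 0.57 to 0.62, edgeR adjusted p from 0.0519 to 0.0747), and that in siCT cells without siCT R5020 replicate 3 (0.60, edgeR adjusted p = 0.0575). Without the pair that stood apart the log2 fold changes were 0.59 ± 0.11 SE, edgeR adjusted p = 0.00135 in siPRMT1 cells, and 0.57 ± 0.13 SE, edgeR adjusted p = 0.00807 in siCT cells. PSMA6 shares sequence with its pseudogenes, which held 18433 counts, against 4144 in PSMA6, nearly all of them in PSMA6P1. PSMA6P1 had 52.2, 66.1 and 60.8 CPM in siPRMT1 R5020 libraries, against 47.6, 43.7 and 47.4 CPM in siPRMT1 ethanol libraries. With siCT it had 32.7, 47.1 and 50.7 CPM in R5020 and 31.8, 39.97 and 18.3 CPM in ethanol libraries. Its log2 fold changes of 0.37 ± 0.24 SE and 0.53 ± 0.24 SE did not pass with all libraries (edgeR adjusted p = 0.398 and 0.186) and passed without the pair (edgeR adjusted p = 0.0274 and 0.0398). PSMA6 and its pseudogenes together averaged 74.5 ± 7.79 CPM in siPRMT1 R5020 and 56.9 ± 2.65 CPM in siPRMT1 ethanol, and 60.1 ± 11.3 CPM in siCT R5020 and 41.0 ± 12.6 CPM in siCT ethanol (SD, n = 3 each). Reads of the gene and of its pseudogenes may have been split by the counting, so the value of PSMA6 alone is uncertain. GENCODE v29 also lists 14.1% of the exonic bases of PSMA6 in AL121594.1 on the same strand.

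**Figure D3:**
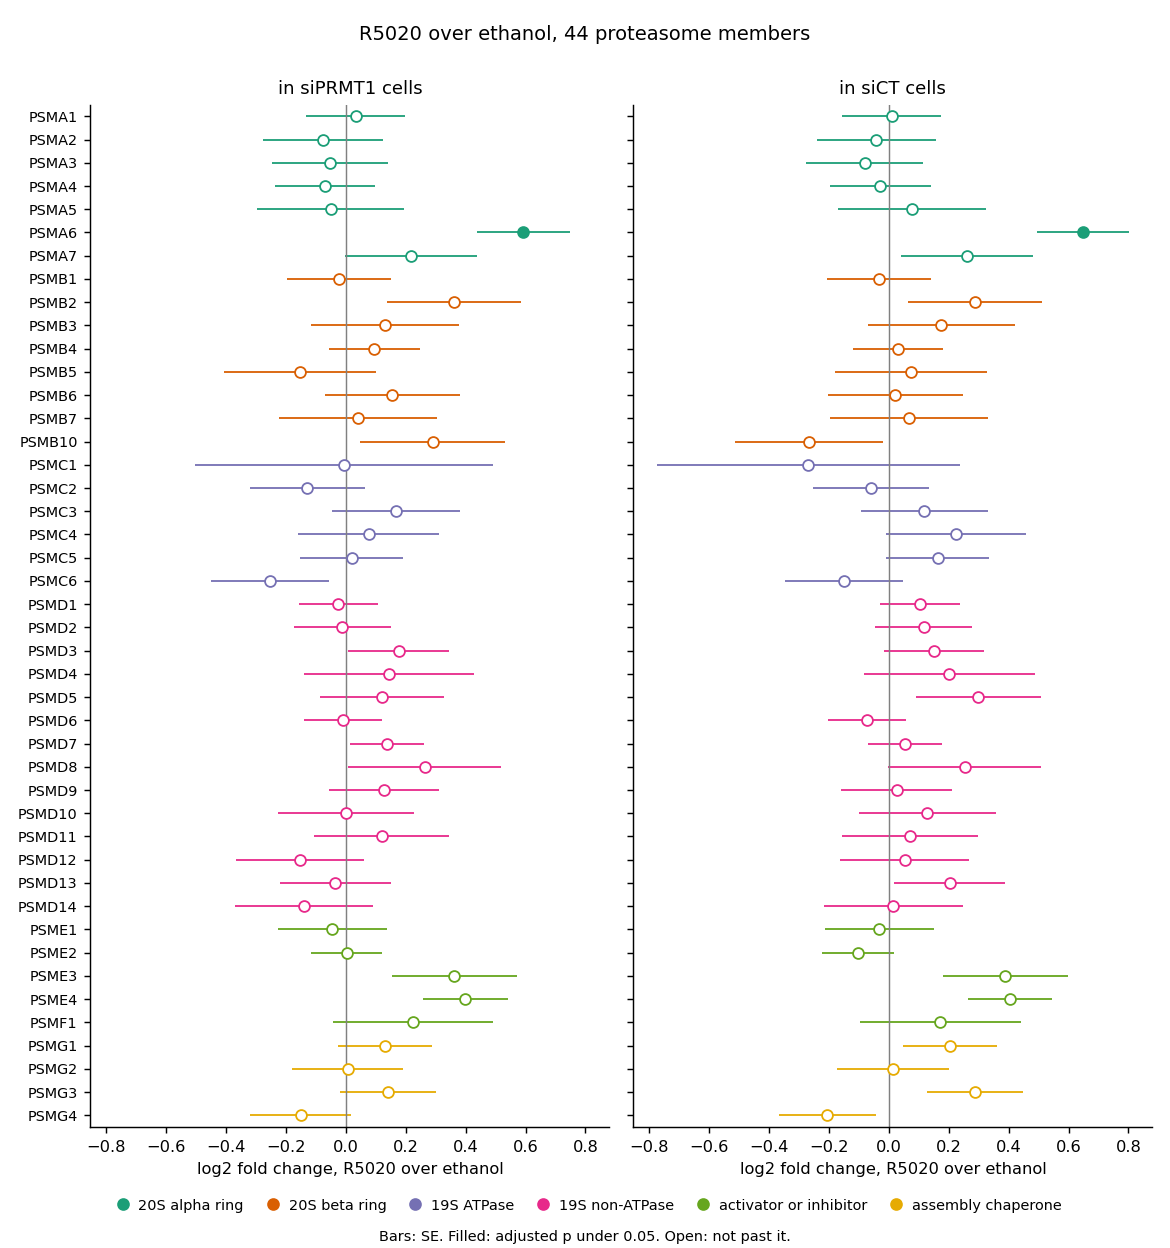
Log2 fold change of R5020 over ethanol for the 44 tested members, in siPRMT1 and in siCT cells, by class, with bars for the SE and filled points for an adjusted p under 0.05. PSMA6, at 0.59 and 0.65, is the one filled point of each panel.

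Next to PSMA6 in p came PSME4 and PSME3, which did not pass with all 12 libraries. PSME4 had log2 fold changes of 0.40 ± 0.14 SE in siPRMT1 and 0.40 ± 0.14 SE in siCT cells (edgeR adjusted p = 0.0779 and 0.0829), and its R5020 libraries lay above the ethanol libraries with either siRNA. PSME3 (PA28 gamma), a nuclear activator, had 334, 309 and 318 CPM in siPRMT1 R5020 libraries, against 254, 253 and 240.3 CPM in siPRMT1 ethanol libraries. With siCT it had 198, 284 and 285 CPM in R5020 libraries, against 235, 216 and 135 CPM in ethanol libraries, and the lowest value of each came from the pair that stood apart. The siPRMT1 libraries of the treatments did not overlap, and the siCT ones did. DESeq2 called PSME4 in both siRNAs. In edgeR PSME4 also passed in siPRMT1 cells without siCT ethanol replicate 2 or 3 (log2 fold change 0.36 to 0.41, edgeR adjusted p from 0.0315 to 0.0382) and in siCT cells without siCT ethanol replicate 2 (0.52, edgeR adjusted p = 0.0222). For PSME3 the log2 fold changes were 0.36 ± 0.21 SE and 0.39 ± 0.21 SE (edgeR adjusted p = 0.322 and 0.275).

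Without the pair, PSME3 and PSME4 were called higher beside PSMA6 in both siRNAs. PSME3 then had 0.36 ± 0.065 SE, edgeR adjusted p = 0.00143 in siPRMT1 cells, and 0.33 ± 0.080 SE, edgeR adjusted p = 0.0124 in siCT cells. PSME4 had 0.39 ± 0.079 SE, edgeR adjusted p = 0.00274 in siPRMT1 cells, and 0.40 ± 0.10 SE, edgeR adjusted p = 0.0123 in siCT cells. PSMB2, a beta-ring subunit that cuts no peptide bonds, was the one further call, in siPRMT1 cells (0.36 ± 0.060 SE, edgeR adjusted p = 0.000781). That made 4 of 44 members in siPRMT1 cells and 3 in siCT cells, where 29.1% and 19.9% of all genes were called.

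The siPRMT1 libraries varied least, with a median CV over members of 6.13% in R5020 and 3.39% in ethanol, against 14.5% in siCT R5020 and 27.6% in siCT ethanol. Fitted on the 6 siPRMT1 libraries alone, 9 members were called with R5020, where 46.6% of all genes were. PSMA6, PSMA7, PSMB2, PSMD3, PSMD8, PSME3, PSME4 and PSMF1 were higher and the ATPase PSMC6 lower. PSMB2 had 192, 199.8 and 194 CPM in these R5020 libraries, against 152, 154 and 150.3 CPM in the ethanol libraries. PSMF1 had 128, 124 and 134 CPM, against 109.6, 113 and 107 CPM. On the 6 siCT libraries alone edgeR called no member, with 1 at an unadjusted p under 0.05, and DESeq2 on all 12 libraries called 2, PSMA6 and PSME4, where 15.8% of all genes were, as in siPRMT1 cells, where 17.7% were. On the 6 siCT libraries 5.29% of all genes were called. With all 12 libraries, R5020 libraries did not overlap with ethanol libraries and were higher for 12 members in siPRMT1 cells and 2 in siCT cells, and lower for 2 and 1. Among all genes 27.6% and 10.5% were higher and 25.5% and 10.3% lower.

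Whether the R5020 change differs between siPRMT1 and siCT cells was tested by the interaction, which is the R5020 log2 fold change with siPRMT1 minus the one with siCT. With edgeR 0 members were called, 0 reached an unadjusted p under 0.05, and DESeq2 called 0. Of all genes 0.079% were called by edgeR and 0.502% by DESeq2, and 0.779% without the pair that stood apart, again with no member. The smallest p values belonged to PSMB10 (0.56 ± 0.35 SE, edgeR adjusted p = 1), PSMD13 (-0.24 ± 0.26 SE) and PSMD1 (-0.13 ± 0.19 SE). For PSMA6 the difference was -0.054, with a 95% interval of -0.52 to 0.41, and for PSME4 -0.0045, with an interval of -0.43 to 0.42. For PSME3 the interval was -0.66 to 0.61 around -0.027. With 3 libraries a group, differences anywhere within these intervals remain compatible with the values, and a missed threshold does not show that the responses are alike.

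The catalytic subunits of the core did not pass with all 12 libraries in any comparison. PSMB5, the chymotrypsin-like subunit that proteasome inhibitors target, averaged 19.5 ± 3.66 CPM in siPRMT1 R5020, 21.6 ± 2.25 in siPRMT1 ethanol, 22.0 ± 5.17 in siCT R5020 and 20.8 ± 7.14 in siCT ethanol (SD, n = 3 here and below). PSMB6 averaged 16.6 ± 1.74, 14.9 ± 0.223, 17.2 ± 4.19 and 16.9 ± 5.35 CPM in the same order of groups. PSMB7 averaged 106 ± 6.44, 103 ± 2.39, 109 ± 24.9 and 104 ± 42.7 CPM. The lowest siCT value of each of these came from the pair that stood apart. PSMB10, the subunit that replaces PSMB7 in the interferon-induced immunoproteasome, averaged 3.67 ± 0.972, 3.00 ± 0.0868, 2.76 ± 0.577 and 3.29 ± 0.882 CPM, and its groups overlapped. GENCODE v29 lists 34.8% of its exonic bases also in AC040162.1 on the same strand. The other immunoproteasome subunits, PSMB8 and PSMB9, lie outside the rule, and PSMB9 was not called. PSMB8 rose with siPRMT1 in R5020, with 38.9 ± 2.59 CPM in siPRMT1 and 26.9 ± 5.13 CPM in siCT cells (log2 fold change 0.53 ± 0.17 SE, edgeR adjusted p = 0.0408).

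Of the other activators, PSME1 and PSME2, which form the interferon-inducible PA28 ring, were not called. PSME1 averaged 107 ± 2.15 CPM in siPRMT1 R5020, 110.1 ± 9.11 in siPRMT1 ethanol, 92.1 ± 13.9 in siCT R5020 and 94.1 ± 22.6 in siCT ethanol. PSME2 averaged 39.0 ± 0.460, 38.9 ± 1.31, 32.0 ± 1.37 and 34.4 ± 3.13 CPM in the same order. Its siPRMT1 R5020 libraries lay above the siCT R5020 libraries (log2 fold change 0.28 ± 0.12 SE, edgeR adjusted p = 0.0952), and the change passed without the pair (0.33 ± 0.093 SE, edgeR adjusted p = 0.0158). A pseudogene, PSME2P2, held 8143 counts, against 13845 in PSME2. PSMF1 averaged 129 ± 5.11, 109.9 ± 2.80, 110.0 ± 28.5 and 97.5 ± 41.1 CPM.

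Among the assembly chaperones, PSMG1 and PSMG2, which pair to start the alpha ring, were not called. PSMG1 averaged 17.9 ± 0.998 CPM in siPRMT1 R5020, 16.4 ± 1.17 in siPRMT1 ethanol, 16.4 ± 1.11 in siCT R5020 and 14.2 ± 3.12 in siCT ethanol. PSMG2 averaged 68.5 ± 3.56, 68.2 ± 3.33, 61.8 ± 9.04 and 61.1 ± 16.2 CPM in the same order. PSMG3 averaged 14.9 ± 0.535, 13.5 ± 0.548, 18.6 ± 2.12 and 15.2 ± 3.40 CPM, lower in all siPRMT1 R5020 than in all siCT R5020 libraries. Of these chaperones only PSMG4 passed the test in any comparison with all 12 libraries.

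Counts of the ATPase PSMC1 say little about the gene. It had 378 counts over all 12 libraries, against 7907 in its 13 pseudogenes, of which PSMC1P1 held 7477. In GENCODE v29, 75.8% of its exonic bases lie opposite NRDE2. Its SE was the largest among members (-0.047 ± 0.51 for siPRMT1 in R5020 and -0.31 ± 0.50 in ethanol). With its pseudogenes it summed to 22.7 ± 1.28 CPM in siPRMT1 R5020, 23.4 ± 1.12 in siPRMT1 ethanol, 19.1 ± 2.84 in siCT R5020 and 19.98 ± 3.66 in siCT ethanol. PSMB3, a beta-ring subunit, had 37675 counts and its pseudogene PSMB3P2 18382.

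The summed members were lower in the pair that stood apart. They summed to 3319, 3438 and 3437 CPM in siPRMT1 R5020 libraries and 3165, 3130.2 and 3084 CPM in siPRMT1 ethanol libraries. In siCT R5020 libraries they summed to 2519, 3301 and 3330.2 CPM and in siCT ethanol libraries to 3194, 3079 and 2011 CPM. Replicate 1 of siCT R5020 and replicate 3 of siCT ethanol were the lowest of their groups. Of the 44 members, 39 were lowest of their group in siCT R5020 replicate 1, against 46.96% of all genes, and 35 were in siCT ethanol replicate 3, against 41.6%. For 35 members both were lowest, and for 36.2% of all genes.

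Of the counts outside mitochondrially encoded genes the members took 0.395% in siCT R5020 replicate 1 and 0.323% in siCT ethanol replicate 3, and between 0.510% and 0.539% in the remaining 10. The ATPases PSMC1 and PSMC6 were exceptions, each highest of its group in both libraries of the pair. The activators and the inhibitor, as a class, summed to 808, 798 and 804 CPM in siPRMT1 R5020 and 676, 676 and 648 CPM in siPRMT1 ethanol. In siCT R5020 they summed to 508, 689 and 682 CPM and in siCT ethanol to 619.8, 566 and 387 CPM, most of which was PSME3 and PSME4. The beta ring summed to 647, 673 and 685 CPM in siPRMT1 R5020 and 611, 599 and 604 CPM in siPRMT1 ethanol. In siCT R5020 it summed to 559.5, 759 and 765 CPM and in siCT ethanol to 788, 700.1 and 450.2 CPM. Outside the pair, all siCT libraries had more of the beta ring than all siPRMT1 libraries. The part of this pair in a result was not tested beyond the values without it.

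**Figure D4:**
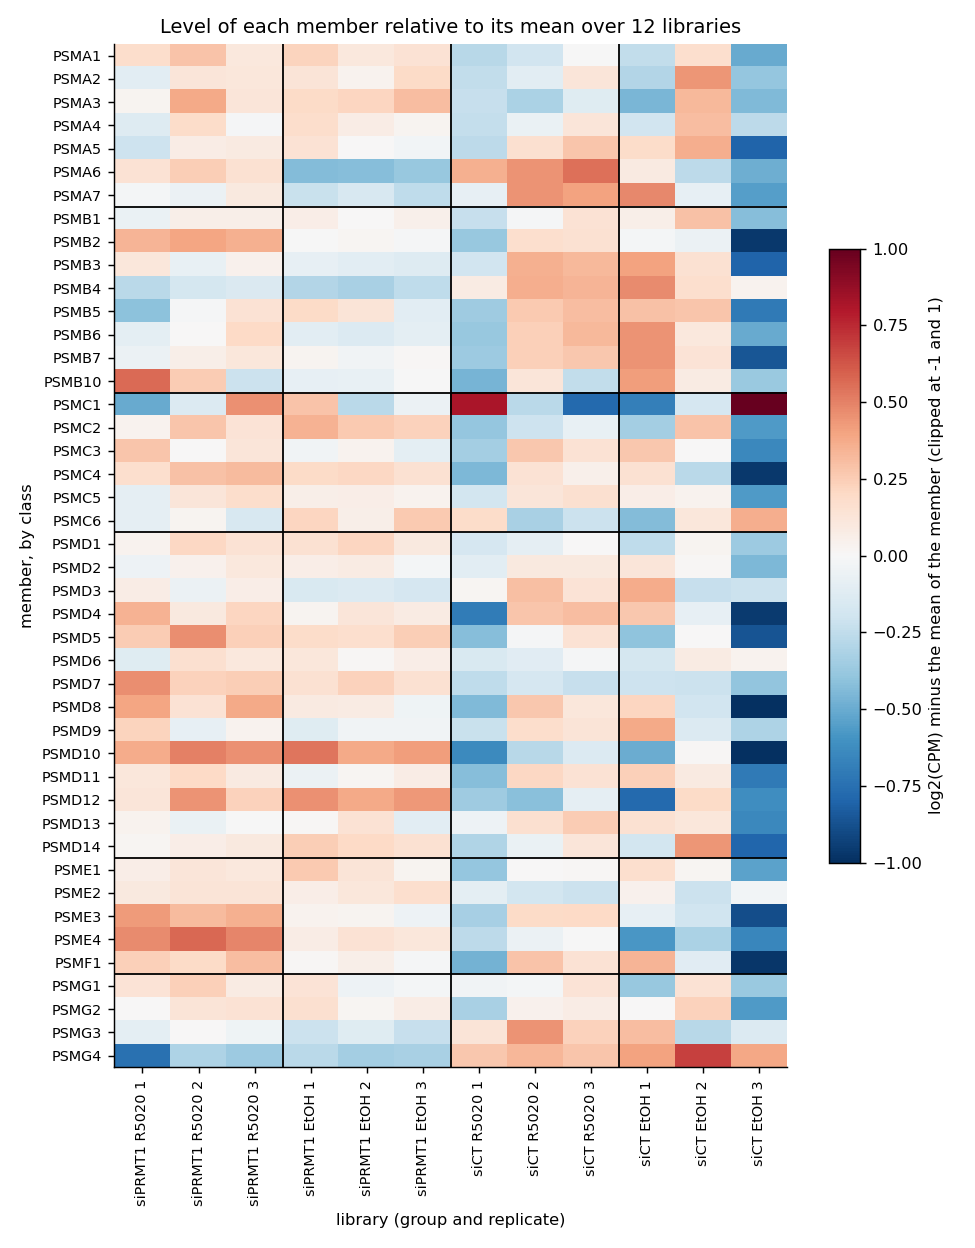
Level of each tested member in each library as log2 CPM minus the member's mean over 12 libraries, with classes separated by horizontal and groups by vertical lines. Most members are blue, below their mean, in siCT R5020 replicate 1 and siCT ethanol replicate 3, where 39 and 35 of 44 members are lowest of their group.

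**Figure D5:**
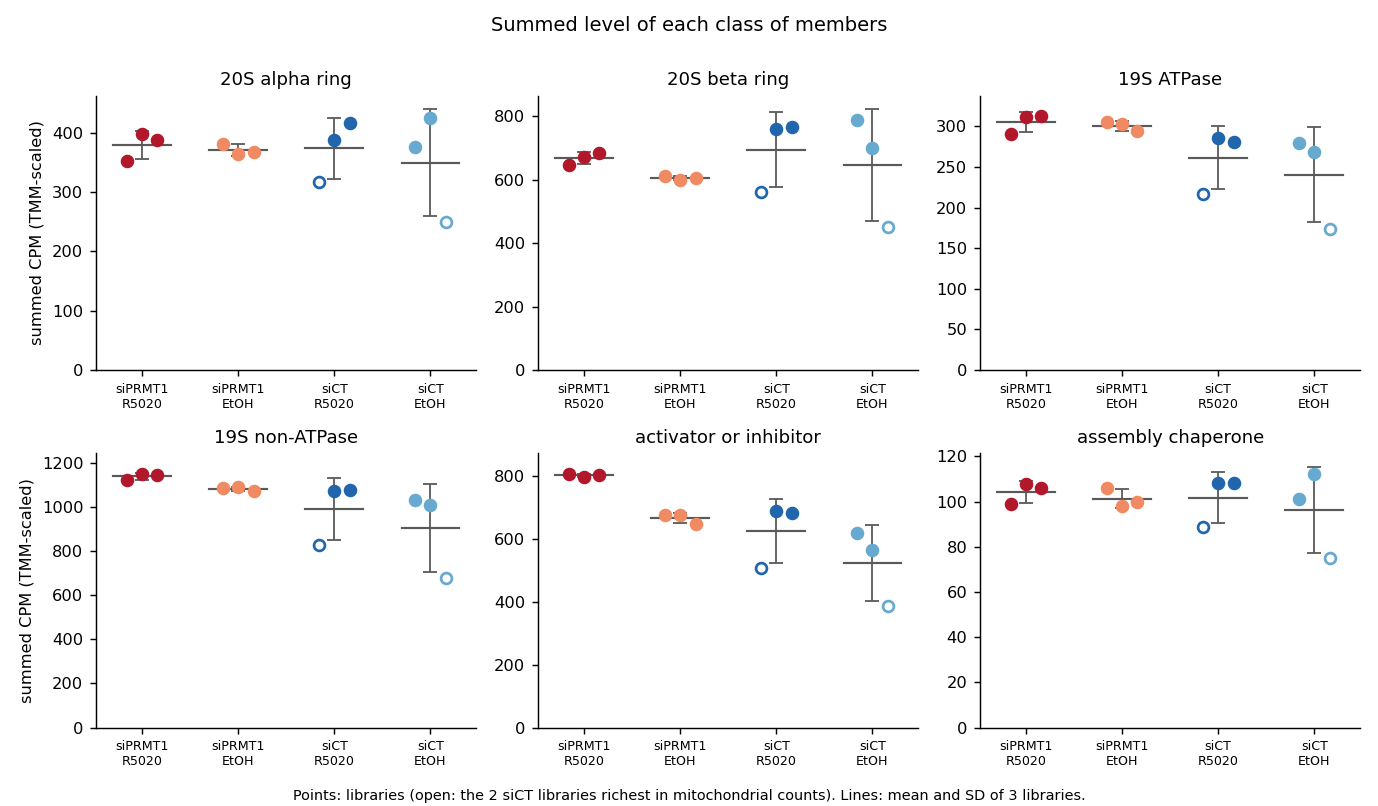
Summed CPM of each class by group, with 1 point per library, the mean and the SD of 3 libraries; open points are the pair of siCT libraries rich in mitochondrially encoded counts. The activators and the inhibitor reach 798 to 808 CPM in siPRMT1 R5020, above every other library, and the open points are the lowest of their group in all 6 classes.

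Among 14 factors that mature, import or bind the proteasome, 2 were called higher with R5020 in siPRMT1 cells and 1 in siCT cells. Of all genes, 9.3% were called higher in siPRMT1 cells and 7.59% in siCT cells. UBE3C, a ubiquitin ligase that works on the proteasome, had 96.9, 101 and 97.4 CPM in siPRMT1 R5020 libraries, against 44.3, 48.1 and 45.0 CPM in siPRMT1 ethanol libraries. With siCT it had 80.9, 97.1 and 100.1 CPM in R5020 and 49.5, 47.1 and 38.2 CPM in ethanol libraries. Its groups did not overlap, and it rose 2.15-fold in siPRMT1 cells (log2 fold change 1.10 ± 0.14 SE, edgeR adjusted p = 0.000103) and 2.06-fold in siCT cells (log2 fold change 1.04 ± 0.14 SE, edgeR adjusted p = 0.000198). The ubiquitin receptor ADRM1 rose in siPRMT1 cells (log2 fold change 0.84 ± 0.20 SE, edgeR adjusted p = 0.0104), with 61.0 ± 2.95 CPM in R5020 and 34.2 ± 0.850 CPM in ethanol. In siCT cells it was also higher on average, with 49.9 ± 7.66 CPM in R5020 and 33.6 ± 11.2 CPM in ethanol, but was not called. With siPRMT1, 1 of the 14 was called in R5020, AKIRIN2, which takes part in nuclear import of the proteasome (log2 fold change 0.62 ± 0.21 SE, edgeR adjusted p = 0.0403). In ethanol 2 were called, the proteasome-bound deubiquitinases UCHL5 (log2 fold change 0.82 ± 0.23 SE, edgeR adjusted p = 0.0154) and USP14 (log2 fold change 0.59 ± 0.18 SE, edgeR adjusted p = 0.0223). Both were also higher on average in R5020, without being called. UCHL5 had 21.5 ± 1.32 CPM in siPRMT1 R5020 and 14.5 ± 2.38 CPM in siCT R5020, and USP14 59.6 ± 2.31 and 43.5 ± 5.34 CPM. Of all genes, 11.5% were called higher with siPRMT1 in R5020 and 13.6% in ethanol.

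Of 10 transcription factors and processing enzymes linked to proteasome genes, 2 were called higher and 2 lower with R5020 in siPRMT1 cells and 2 higher and 1 lower in siCT cells. Of all genes, 9.3% were called higher and 6.08% lower in siPRMT1 cells, and 7.59% and 5.43% in siCT cells. NFE2L3, a relative of NFE2L1, rose 3.41-fold in siPRMT1 and 3.26-fold in siCT cells, and MAFF, a small MAF partner of these factors, 4.50-fold and 2.72-fold. BACH1, a repressor at AREs, fell in both (log2 fold change -0.58 ± 0.12 SE and -0.77 ± 0.12 SE), and the protease DDI2, which activates NFE2L1, fell in siPRMT1 cells (log2 fold change -0.59 ± 0.17 SE). In edgeR the adjusted p of these was 0.00299 and 0.00417 for NFE2L3, 0.00847 and 0.0443 for MAFF, 0.00498 and 0.00082 for BACH1, and 0.0309 for DDI2. NFE2L1 and NFE2L2 did not pass with R5020.

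With siPRMT1 the same 10 genes gave 2 called higher in R5020, and 3 higher and 2 lower in ethanol. Of all genes, 11.5% were called higher and 14.2% lower in R5020, and 13.6% and 19.2% in ethanol. NGLY1, the glycanase that processes NFE2L1, rose 1.65-fold in R5020 and 1.59-fold in ethanol (edgeR adjusted p = 0.00261 and 0.00326), and BACH1 1.51-fold in R5020 and 1.33-fold in ethanol (edgeR adjusted p = 0.00451 and 0.0213). DDI2 rose 1.79-fold in ethanol (edgeR adjusted p = 0.00315), and MAFF fell 3.80-fold (log2 fold change -1.93 ± 0.51 SE, edgeR adjusted p = 0.0125). Without the pair MAFF had a smaller log2 fold change in ethanol (-1.15 ± 0.31 SE, edgeR adjusted p = 0.0115), and passed in R5020 as well (-0.87 ± 0.22 SE, edgeR adjusted p = 0.0091). NFE2L1 had 104, 95.3 and 99.8 CPM in siPRMT1 R5020 libraries, against 244, 138 and 130.2 CPM in siCT R5020 libraries. In ethanol it had 80.4, 82.3 and 74.6 CPM in siPRMT1 cells, against 139.8, 117 and 291 CPM in siCT cells. The highest siCT values were those of the pair that stood apart. NFE2L1 fell 2.304-fold in ethanol (log2 fold change -1.20 ± 0.31 SE, edgeR adjusted p = 0.011), and its log2 fold change of -0.78 ± 0.31 SE in R5020 did not pass (edgeR adjusted p = 0.079). Without the pair the log2 fold changes were -0.42 ± 0.092 SE, edgeR adjusted p = 0.00449 in R5020, and -0.69 ± 0.092 SE, edgeR adjusted p = 0.000165 in ethanol.

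Among ubiquitin genes, activating enzymes and shuttle factors, the shuttle UBQLN4, which carries ubiquitin-marked proteins to the proteasome, was called higher with R5020 in each siRNA. UBQLN4 rose 1.51-fold in siPRMT1 cells and 1.72-fold in siCT cells (edgeR adjusted p = 0.026 and 0.00622). With siPRMT1, UBQLN4 was also called higher in ethanol (log2 fold change 0.52 ± 0.17 SE, edgeR adjusted p = 0.0295). No gene of these lists was called in the interaction by edgeR or at an unadjusted p under 0.05 with all 12 libraries.

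In the authors' deposited table of their own comparisons, 8 members were called higher and none lower with R5020 in siPRMT1 cells, where 33.6% of all genes with an adjusted p were called, and none in siCT cells, where 6.61% were. That the responses of the siRNAs differ is not shown by this, since no member passed the interaction. The 8 were PSMA6, PSMA7, PSMB2, PSMD3, PSMD8, PSME3, PSME4 and PSMF1. With siPRMT1 the authors' deposited table called 7 members higher and 2 lower in R5020, where 30.7% of all genes were called, and 3 higher and 1 lower in ethanol, where 19.8% were. PSME4, PSMD10 and PSMD12 were higher and PSMG4 lower in the authors' deposited table in both treatments. In ethanol the authors' deposited table did not call PSMB4 (adjusted p = 0.101) or PSMD7 (adjusted p = 0.0516), which edgeR called here.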

How the data were processed

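RNA-seq libraries (SENSE mRNA-Seq kit V2, Lexogen, from TRIzol RNA, per the labels' protocols) of 4 groups of 3 biological replicates were analysed; nothing in the labels says more about what separates the replicates. Per the submitters' processing notes, the tools included Bowtie2 2.3.2.2, HTSeq 0.9.1 and DESeq2, on hg19. The authors deposited raw read counts per gene symbol for each library. The authors also deposited tables of their comparisons, with log2 fold changes and with p-values and adjusted p-values. The strand setting of the counting is not given in the sources used here. Annotation and promoters on GRCh38 served for overlaps and sequences only, since the counts carry symbols and no coordinates.

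Counts were filtered with filterByExpr, which left 17727 genes, scaled by TMM and fitted with edgeR 4.0.16 in R 4.3.3 across all 12 libraries, with 1 mean per group. Quasi-likelihood tests gave 5 contrasts, with Benjamini-Hochberg adjustment over all genes and calls at an adjusted p under 0.05. The fit was tested on simulated counts first. These had the same spread in every group, unlike the data, so they do not test how unequal spread affects the calls. Levels were CPM with the SD of 3 libraries. Alternatives included DESeq2 1.42.0 and limma 3.58.1, other scalings and filters, leaving out each library, and leaving out the pair of siCT libraries rich in mitochondrially encoded counts, which was chosen after the data were seen. Members, gene lists and tests were chosen with earlier results of these data known. Named in full were members called in a comparison; where fewer than 3 were called, the 3 with the lowest p were given. Catalytic subunits, activators, PSMF1 and the assembly chaperones were described whatever their change, and up to 4 called genes of each related list were named per comparison; a result of one related list is not reported here. PSMA3P and PSMD12P, whose symbols end in P with no digits, were left out with the other pseudogenes. Total counts of 26783525 to 34120937 per library limit the precision of low members such as PSMG4 and PSMC1. Reads carry no molecular identifiers, so these counts are not independent molecules.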

Additional observations from a re-analysis of the deposited data

How the results depend on the processing

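Of the 21 named member results, none changed sign under any alternative; 63 of their values under an alternative no longer passed the threshold, 15 newly passed it and 378 stayed on the same side. With library totals in place of TMM scaling, 0 members were called in each of the 5 contrasts, and the median of all genes moved to -0.18 (R5020 in siPRMT1), -0.070 (R5020 in siCT), 0.0066 (siPRMT1 in R5020), 0.11 (siPRMT1 in ethanol) and -0.10 (interaction); the median member changed sign in 1 contrast under that scaling, R5020 in siPRMT1, to -0.13. It also changed sign for R5020 in siCT without siCT ethanol replicate 3, to -0.049, and in the interaction, where it was -0.027 with all libraries, -0.13 to 0.054 with 1 left out and 0.032 without the pair. The cause was not tested. The counts with all libraries were 1 (R5020 in siPRMT1), 1 (R5020 in siCT), 5 (siPRMT1 in R5020) and 7 (siPRMT1 in ethanol), where 15.4%, 13%, 25.7% and 32.8% of all genes were called. In the same order of contrasts, sample quality weights gave 9, 2, 17 and 7 calls (all genes 46.1%, 11.6%, 55.7% and 30.7%), the 6 libraries compared alone 9, 0, 7 and 3 (46.6%, 5.29%, 35.2% and 19.5%), DESeq2 2, 2, 6 and 8 (17.7%, 15.8%, 30.1% and 36.9%), and a mean of at least 5 CPM 2, 1, 4 and 5 (16%, 14%, 26.4% and 33.6%). Leaving out the pair of siCT libraries rich in mitochondrially encoded counts, chosen after the data were seen, gave 4, 3, 9 and 13 (29.1%, 19.9%, 38.9% and 44.5%). Leaving out 1 library at a time gave 0 to 2, 0 to 3, 3 to 9 and 4 to 14 (all genes 10.1% to 21.1%, 8.57% to 16.8%, 12.9% to 37.5% and 19.3% to 43.4%). The highest of these counts came in every contrast without siCT ethanol replicate 2, shared in R5020 in siPRMT1 with siCT ethanol replicate 3. The lowest came without any 1 siPRMT1 library for R5020 in siPRMT1, without siCT R5020 replicate 3 for R5020 in siCT, without siCT R5020 replicate 2 or any 1 siPRMT1 R5020 library for siPRMT1 in R5020, and without any 1 siPRMT1 ethanol library for siPRMT1 in ethanol. The interaction gave 0 calls under every alternative run.

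Same-numbered libraries of different groups had correlations of their deviations from -0.77 to 0.41, 4 of 18 of them above 0.1, and 2 of 12 libraries correlated best with their own number. The highest correlation, 0.88, was between the libraries of the pair that stood apart, whose numbers differ. Deviations of 3 libraries from the mean of their group are also tied to each other. These values therefore cannot decide whether libraries of the same number share a batch. With the replicate block 1, 1, 4 and 6 members were called in the same order of contrasts and 0 in the interaction (12.9%, 10.7%, 21.7%, 27.8% and 0% of all genes); PSMB4 in R5020 and PSMD5 in ethanol, both with siPRMT1, were not called.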
